A study of Mus musculus with 8 samples.

Results

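Some probes of expression arrays are designed to transcripts known at the time only as assembled expressed sequence tags, and are named TC followed by a number. To examine this class, the non-control probes whose systematic name is TC and digits alone were taken from a series of 8 single-colour Agilent mouse arrays, which gave 448 probes among 55681. Each had 1 spot per array. The 448 probes carry 441 cluster names, because 7 clusters are represented by 2 different probes each. Each array was hybridised with labelled RNA from 1 whole embryo collected at embryonic day 8.5, soon after gastrulation, when the somites, the heart tube and the neural folds are forming.

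The embryos were grouped by the genotype of the father. Males homozygous for the Eedl7Rn5-1989SB allele sired 4 of the embryos (HOM father) and heterozygous males sired the other 4 (HET father), on a C57bl6/129 background. *Eed* encodes a core subunit of Polycomb Repressive Complex 2, which methylates histone H3 at lysine 27, and the allele is a chemically induced point mutation, a hypomorph that lowers EED function and is carried in all cells. All 8 embryos were heterozygous for it and all mothers were wild type, and each group held 2 females and 2 males. The question was whether reduced EED function in the father was associated with different transcript levels in offspring of the same genotype. By the study's account the homozygous and heterozygous sires were brothers from littermate pairs, and some embryos share a father. The files do not say which embryos share a father or which had fathers that were brothers. The fit by father therefore treats the groups as unpaired. Sample names begin with a number of unstated meaning, which is the same for HOM father replicates 3 and 4 and again for HET father replicates 1 and 2. The p-values measure the spread between these 8 embryos and not between independent sires.

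A tentative consensus (TC) sequence is the product of clustering and assembling overlapping expressed sequence tags, the short single-pass reads of cDNA ends. Such a sequence can be a gene that has since been annotated, an extended or alternative end of one, a non-coding transcript, a transcribed copy of another gene, or unspliced RNA. Names were matched by accession to the RefSeq gene table, which 27235 of all probes did. A TC name is not such an accession, so 0 of the 448 could match. Whether their transcripts belong to RefSeq genes was not examined. The probes are therefore named here by cluster and probe identifier, no function is assigned from the array files, and their sequences and genome positions were not analysed here. By the leading code of the probe identifier 412 belonged to the A_55 series, 19 to A_66, 14 to A_52 and 3 to A_65.

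Signals are given as the log2 processed intensity minus the 75th percentile of the array, so that 0 is the 75th percentile of all probes and each unit is a doubling. The scanner software marks whether a spot is well above background. Over all probes 50.6% to 59.7% passed this mark per array, with the highest shares on HOM father replicate 1 and HET father replicate 1. No TC spot was saturated. Markers of the embryo (*T*, *Sox2*, *Meox1*, *Nkx2-5*, *Myl7*, *Foxa2*, *Hba-x* and *Hbb-bh1*) and of yolk sac endoderm (*Afp*, *Ttr* and *Apoa4*) were well above background on all 8 arrays. Of 4 decidua and trophoblast markers, *Prl8a2* and *Prl3d1* passed it on all arrays and *Prl3c1* and *Tpbpa* on none. The summed level of these 4 ranged from 0.78 to 4.59 in HOM father embryos and from -2.37 to 2.31 in HET father embryos on the log2 scale, and its part in the differences given below was not tested. The *Eed* probe differed by 0.01 between the groups (limma adjusted p = 0.870). *Xist* and the Y-linked genes matched the labelled sex of every embryo. The 4 HOM father arrays lay on 1 slide and the 4 HET father arrays on another, scanned separately, so in each comparison by father the effect of the slide and that of the father cannot be told apart.

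Fewer TC probes than messenger RNA probes were detected. Of the 448 probes, 48.7%, 40.6%, 41.3% and 42.4% were well above background in HOM father embryos (replicates 1 to 4) and 43.8%, 40.6%, 37.3% and 39.3% in HET father embryos. For the 26536 probes designed to curated RefSeq messenger RNAs, whose names start with NM, the shares were 68.6% to 74.95%, above those of TC probes on every array. The group means for TC probes were 43.2% ± 3.68 and 40.2% ± 2.72 (SD, n = 4), which overlap. On all 8 arrays together, 149 TC probes (33.3%) were well above background everywhere, compared with 66.2% of NM probes, 35.2% of probes named by AK accessions of full-length cDNA clones, and 24.4% of long intergenic non-coding RNA (lincRNA) probes. On no array at all were 184 TC probes (41.1%) well above background, against 20.5% of NM probes and 47.8% of lincRNA probes. In this respect TC probes resembled AK clones, of which 40.1% were never detected, and several other classes, such as probes without a transcript name (42.6%).

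A further 51 TC probes (11.4%) were well above background on 1 array and no other, compared with 4.91% of NM probes and 8.02% of all probes. The shares of lincRNA probes (11.6%) and AK probes (10.3%) were close to that of TC probes. HOM father replicate 1 accounted for 16 of the 51 and HOM father replicate 4 for 8, while the other arrays held between 2 and 7. Over all probes HOM father replicate 1 was likewise the array with most such spots, 1382 of 4465. Several of these lone spots were far from the floor. The probe A_55_P1967933 of TC1699856 was at -1.64 in HET father replicate 4 and between -7.95 and -5.37 in the other embryos. The other probe of the same cluster, A_55_P2001753, was at -6.89 in HET father replicate 4 and was well above background in HET father replicates 2 and 3 instead, at -4.27 and -3.28. The 2 probes of this cluster therefore did not mark the same embryos. Outside the 51, A_55_P1964920 of TC1614033 was well above background on 2 arrays. It was at -0.89 in HOM father replicate 3 and at -2.004 in HET father replicate 3, with the other 6 embryos between -7.38 and -5.76.

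A probe was tested when on 4 or more of the 8 arrays it passed the background mark and did not fall under the array's 20th percentile. This held for 180 TC probes (40.2%), for 70.8% of NM probes and for 32.2% of lincRNA probes. Of the 180, 149 passed on all 8 arrays, 24 passed on more HOM father than HET father arrays, 5 the reverse and 2 on equal numbers short of 4. Only 1, described below, passed through 1 father group alone. The 268 untested probes comprise the 184 that were never well above background and 84 that were so on 1 to 3 arrays. The tested TC probes spanned nearly the whole range of the array, from -5.21 to 8.13, with a median of -1.83 compared with 0.40 for NM probes.

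The brightest TC probe, A_55_P2094237 of TC1665378, was at 8.09, 8.02, 8.05 and 8.21 in HOM father embryos and 8.25, 8.02, 8.20 and 8.15 in HET father embryos. It lay at the 99.9th percentile of tested probes, and its groups overlapped. A_55_P1960178 of TC1726791 was at 7.80, 7.84, 7.73 and 7.89 in HOM father embryos and at 8.14, 8.02, 8.13 and 8.06 in HET father embryos. Every HET father embryo was above every HOM father embryo, but the difference of -0.27 (SE 0.05) amounted to 1.21-fold (limma adjusted p = 0.0109). A_55_P2133356 of TC1665390 showed the same order, with 6.82, 6.88, 6.81 and 6.88 against 7.08, 7.03, 7.18 and 7.06, a difference of -0.24 (SE 0.05, limma adjusted p = 0.0134). This order was common at high signal. In the brightest of 5 bins of tested probes by mean signal, 28.2% of all probes and 28.5% of NM probes showed it.

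The other 3 of the 6 brightest overlapped between groups. A_55_P1996419 of TC1573766 was at 7.34, 7.43, 7.40 and 7.53 in HOM father embryos and 7.55, 7.45, 7.57 and 7.45 in HET father embryos. A_55_P2158151 of TC1659587 was at 7.43, 7.39, 7.31 and 7.47 against 7.55, 7.43, 7.46 and 7.47. A_55_P2056260 of TC1725193 was at 6.86, 6.85, 6.88 and 6.97 against 6.91, 6.77, 6.83 and 6.74. The mean signals of these 6 probes lay between the 98.0th and the 99.9th percentile of tested probes. The largest difference by father among the 6 was 1.21-fold.

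In the comparison by father 9 of the 180 tested TC probes differed by 2-fold or more at an adjusted p below 0.01, fitted with limma over all 29717 tested probes. In HOM father embryos 8 were higher (4.44%, compared with 1.24% of all tested probes and 0.405% of NM probes). Other classes had shares close to or between these, at 4.30% of probes with names starting with NAP, 4.17% of probes without a transcript name and 2.63% of lincRNA probes. The 1 lower probe (0.0269% of all tested probes were lower) had passed the filter through the HET father arrays alone, and so had to differ. The groups did not overlap for any of the 9, which is no further evidence, as the 9 were chosen on these same values. The 8 higher probes rose between 2.02-fold and 3.77-fold. With normexp background correction (offset 50) the changes of the 3 dimmest became smaller by over 1.5 times in fold. On the log2 scale they went from 1.91 to 1.16 for A_55_P2182162, from 1.84 to 1.06 for A_55_P2061119 and from 1.68 to 0.94 for A_55_P1979498. How much of this came from the offset was not tested. The 8 higher probes lay between the 11.4th and the 72.9th percentile of tested signal, and 6 of the 8 were well above background on all arrays.

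TC1660207 (A_55_P2182162) had the largest fitted rise, although with normexp background correction it was below A_55_P2022699 (1.60), A_55_P2179793 (1.40) and A_66_P123294 (1.26). Its signal was -2.25, -2.13, -2.12 and -2.19 in HOM father embryos and -3.85, -3.97, -4.29 and -4.24 in HET father embryos. All 4 HOM father embryos lay within a range of 0.13 of each other and more than 1.5 units above the nearest HET father embryo. The change was 1.91 on the log2 scale (SE 0.10, 95% interval 1.68 to 2.15, 3.77-fold, limma adjusted p = 6.94e-05).

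TC1648127 (A_55_P2061119) was at -2.84, -2.67, -2.90 and -2.94 in HOM father embryos and at -4.28, -5.01, -4.72 and -4.72 in HET father embryos. It was well above background on 1 HET father array only, so its level there was close to what the array could measure. The change was 1.84 (SE 0.15, limma adjusted p = 0.000292). TC1636993 (A_55_P1979498), the dimmest of the 8, was at -2.58, -3.20, -3.35 and -3.63 in HOM father embryos and -5.17, -4.80, -4.89 and -4.64 in HET father embryos. The HOM father embryos were above the others but spread over more than 1 unit among themselves. The change was 1.68 (SE 0.22, limma adjusted p = 0.00206), and 2 HET father arrays were well above background.

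TC1709970 (A_55_P2022699) was brighter, at 1.37, 1.53, 1.47 and 1.38 in HOM father embryos and at -0.18, -0.32, -0.20 and -0.33 in HET father embryos. Spread within each group was small (pooled SD 0.08) beside a change of 1.69 (SE 0.06, 95% interval 1.55 to 1.83, 3.23-fold, limma adjusted p = 2.64e-05), the smallest adjusted p among TC probes. In terms of scanner intensity the spot medians were 3837 to 4955.5 against 1256 to 1449.5, with a local background of 36 to 47, so this difference was far from the detection limit. The study annotates it as a retroposed copy, one made by reverse transcription of a spliced messenger RNA, of *Btf3*, which encodes a transcription factor that also binds nascent polypeptides at the ribosome. TC1709970 and TC1660207 belong to a list that the study drew from these arrays and from RNA sequencing of the same embryos. As the embryos are the same, the list is not independent evidence of their direction. The sequencing data were not analysed here.

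TC1705975 (A_55_P2179793) was at 0.01, -0.54, 0.03 and 0.20 in HOM father embryos and -1.52, -1.73, -1.67 and -1.61 in HET father embryos. HOM father replicate 2 was the lowest of its group but still almost 1 unit above the HET father embryos. The change was 1.56 (SE 0.15, limma adjusted p = 0.000595). TC1735695 (A_66_P123294) was at 0.71, 0.77, 0.74 and 0.67 against -0.40, -0.62, -0.46 and -0.57, with the HOM father embryos within 0.11 of each other. Its change was 1.24 (SE 0.06, 2.36-fold, limma adjusted p = 4.92e-05).

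The last 2 probes were at the fold limit. TC1684887 (A_55_P2168914) was at -0.89, -0.98, -1.12 and -0.99 in HOM father embryos and -2.0003, -2.23, -1.84 and -1.99 in HET father embryos, a change of 1.02 (SE 0.09, limma adjusted p = 0.000421). TC1637255 (A_55_P2070084) was at 2.32, 2.46, 2.35 and 2.49 against 1.32, 1.31, 1.36 and 1.59, a change of 1.01 (SE 0.08, limma adjusted p = 0.000279). In both the groups were clearly apart, and small shifts of scale moved them across the 2-fold limit. On the other side of that limit, TC1766973 (A_55_P2173358) changed by 0.997 (1.997-fold, limma adjusted p = 0.000217) and was not called.

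The 1 lower probe was TC1651972 (A_55_P1975571). It was at -7.86, -6.93, -6.96 and -6.99 in HOM father embryos, where no spot was well above background, and at -3.08, -2.66, -2.11 and -2.44 in HET father embryos, where all were. The HOM father values are floor values with no order among them, and the fitted change of -4.61 (SE 0.27, limma adjusted p = 9.20e-05) is not a measure of size. Against the dimmest spots that were well above background, the transcript was at least 5.27-fold lower in HOM father embryos. The spot medians before scaling were 38.5 to 72.5 in HOM father embryos and 235.5 to 367 in HET father embryos, with a local background of 33.5 to 41.

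With the fold limit set aside, 34 TC probes had an adjusted p below 0.01, 30 higher (7.18% of all tested probes were) and 4 lower (1.64% of all were). The 25 that did not reach 2-fold comprised 22 higher and 3 lower. The 3 lower were TC1696749 (A_55_P2038233), with a change of -0.53, and the bright probes TC1684397 (A_55_P1967534) and TC1635181 (A_55_P2082186), with changes of -0.34 and -0.24. At an adjusted p below 0.05, 54 TC probes were higher (30.0%, compared with 12.3% of all tested probes) and 16 were lower (8.89%, compared with 8.69%). All HOM father arrays lay above all HET father arrays for 58 TC probes (32.2%, compared with 14.1% of all), and the reverse held for 17 (9.44%, compared with 13% of all). By these 2 looser rules the TC shares were above those of the whole array on the higher side and close to or below them on the lower side. On the higher side this was not particular to TC probes. The shares were 25.3% and 27.0% for lincRNA probes and 23.5% and 25.2% for probes without a transcript name. Below the whole array were NM probes (6.61% and 8.46%) and probes with NR names (11.9% and 13.7%).

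The shift extended beyond the called probes. The median difference by father over the 180 tested TC probes was 0.19 (quartiles -0.06 and 0.53), and 125 of them (69.4%) were positive. Over NM probes the median was -0.05 and 38.8% were positive, over lincRNA probes 0.12 and 62.2%, and over all tested probes -0.02 and 45.8%. When arrays were scaled on their medians, which moved the median of all tested probes to -0.21, the TC median was 0.00 and NM probes were at -0.24, so the sign of the TC median rests on the scaling. Its distance from the median of all tested probes was 0.22, which median scaling cannot alter, and became 0.14 with quantile normalisation, 0.12 with normexp background correction and 0.07 without the filter. Relative to the mean of the HET father embryos, the median TC deviation was 0.18, 0.14, 0.17 and 0.25 in HOM father replicates 1 to 4 and 0.02, -0.06, 0.02 and 0.01 in HET father replicates 1 to 4. Each HOM father embryo was thus above each HET father embryo. The deviation is measured from a mean that includes the HET father embryos themselves.

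As TC probes were dimmer than NM probes, the comparison was repeated among probes of like signal, in 5 bins of equal size by mean signal over all arrays. The dimmest bin had the highest median difference among NM probes and among all probes. In the dimmest bin the median difference was 0.24 for 59 TC probes and 0.09 for 2280 NM probes. In bins 2, 3 and 4 it was 0.21, 0.23 and 0.22 for 34, 28 and 19 TC probes and 0.00, -0.04 and -0.07 for NM probes. In the brightest bin it was -0.06 for 40 TC probes and -0.09 for 4242 NM probes. The TC median was above the NM median in 5 of 5 bins, and weighted by the number of TC probes the distance was 0.17. The distance was 0.20 with 10 bins, where it held in 10 of 10, and 0.17 with 5 bins of the mean over HET father arrays. These are descriptions without a test, and a signal mean over all arrays is not independent of the difference.

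The distance was unevenly placed along the signal range. In bin 3, from -1.54 to 0.49, all HOM father arrays lay above all HET father arrays for 13 of 28 TC probes (46.4%). They did so for 9.21% of NM probes and 15.1% of all probes of that bin. In bin 4, from 0.49 to 2.75, the shares were 8 of 19 (42.1%), 6.83% of NM probes and 10.1% of all. In the brightest bin they were 17.5%, 4.17% and 6.31%. There the reverse order was about as common among TC probes (10 of 40, 25%) as among NM probes (28.5%) and all probes (28.2%). The 8 higher calls were spread over the lower 4 bins as 2, 1, 3 and 2. The NM probes of those bins held calls at rates of 1.54%, 0.793%, 0.358% and 0.0203%, and all probes at 2.88%, 1.85%, 1.19% and 0.236%. The NM call rates weighted to the TC signal distribution came to 0.711%, and those of all probes weighted likewise to 1.51%, compared with the 4.44% of TC probes called higher. Spread between embryos of a group was similar in both classes at like signal, with median SDs of 0.25 and 0.28 in the dimmest bin and 0.09 and 0.07 in the brightest.

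Clusters with 2 probes gave a check of 1 name by different oligonucleotides. Of the 7 such clusters, 3 had both probes tested, 1 had 1 tested and 3 had none. The called probe of TC1636993 had a partner, A_55_P1982509, whose only spot well above background was that of HET father replicate 1. The partner stood at -7.83, -6.90, -6.90 and -6.91 in HOM father embryos and at -4.19, -7.14, -6.86 and -6.85 in HET father embryos. It gave no measurement of the rise seen with A_55_P1979498, and the 2 probes cannot be told to detect the same RNA. The probes of TC1682680 differed by -0.09 (A_55_P2041320, limma adjusted p = 0.264) and -0.22 (A_55_P2052330, limma adjusted p = 0.0255). The probes of TC1586156 differed by 0.08 and 0.22 with wide spread (limma adjusted p of 0.856 and 0.707).

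The pair of TC1605758 varied between embryos of both groups. A_55_P2030183 was at 6.26, 5.65, 6.18 and 6.46 in HOM father embryos and at 6.32, 6.20, 4.88 and 5.45 in HET father embryos. Its partner A_55_P1980621 followed at 5.88, 5.29, 5.90 and 6.17 and at 6.06, 5.77, 4.45 and 5.05. HET father replicates 3 and 4 and HOM father replicate 2 were the 3 lowest with both probes, so that embryo-to-embryo variation of more than 1.5 units was seen by separate oligonucleotides. The difference by father was 0.42 (SE 0.34, 95% interval -0.36 to 1.20, limma adjusted p = 0.415) and 0.48 (SE 0.36, 95% interval -0.36 to 1.31, limma adjusted p = 0.388), which leaves a difference of up to these sizes unresolved.

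A further bright TC probe varied as much. TC1700876 (A_55_P1985422) was at 5.61, 6.38, 5.38 and 5.94 in HOM father embryos and at 4.84, 6.59, 6.54 and 6.09 in HET father embryos, with HET father replicate 1 lowest. In the brightest bin these 3 were the TC probes with a pooled SD within groups above 0.5 (3 of 40, 7.5%), a spread that 0.306% of NM probes and 0.993% of all probes of that bin reached. Over all bins 14 TC probes had such a spread, and the other 11 were in the dimmest bin, where 18.6% of TC and 21.7% of NM probes did. Among the dim ones was TC1642954 (A_55_P2170539), from which HOM father replicate 2 was dropped because its spot was flagged. With the remaining 7 arrays the difference was 1.47 (SE 0.70, limma adjusted p = 0.190).

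No TC probe differed by embryo sex under the same limits (0 of 180, compared with 0.0606% of all tested probes, limma with father as a covariate). At an unadjusted p below 0.05 there were 9 TC probes (5.22% of all tested probes were below it), 4 higher in females and 5 higher in males. The smallest p belonged to TC1650464 (A_55_P2277448), at -1.52, -1.65, -1.75 and -1.47 in the 4 females and -2.39, -2.27, -1.86 and -2.13 in the 4 males. All females lay above all males, with a difference of 0.56 that did not pass the adjustment (limma adjusted p = 0.482).

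A difference of the father effect between the sexes was not called for any TC probe at an adjusted p below 0.01 (0 of 180, and 0% of all tested probes, limma interaction term with 2 embryos per combination). At an unadjusted p below 0.05 there were 9 TC probes (4.51% of all were below it). The smallest was that of TC1672055 (A_55_P2014034), at -5.06 and -5.09 in HOM father females, -6.87 and -6.74 in HOM father males, -4.61 and -4.86 in HET father females and -3.95 and -4.22 in HET father males. The limma adjusted p of the interaction was 0.0320. This probe was well above background on 1 HOM father and 3 HET father arrays, and both HOM father males were at the floor, so the size of the difference in males was not measured.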

How the data were processed

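Per the submitters' processing notes, the authors extracted spots with Agilent Feature Extraction 11.0.1.1. The deposited processed signals are linear intensity values that the authors had background-subtracted and spatially detrended, with no scaling between arrays. The deposited spot flags (other values, 0 or 1) mark outliers, saturation and spots well above background. The authors' table of the series held the same intensities to within 0.497%. Labelled RNA came from 0.2 µg of total RNA per embryo.

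Outlier-flagged spots were removed, log2 was taken, each array's 75th percentile was subtracted and spots of 1 probe were averaged. The 29717 tested probes passed the background flag, and did not fall under the array's 20th percentile, on 4 or more of 8 arrays. They were fitted together with limma 3.58.1 in R 4.3.3 (lmFit and eBayes, two-sided, Benjamini-Hochberg adjustment). Calls needed an adjusted p below 0.01 and at least 2-fold. The fit by father was tested on simulated data. The number of arrays and the distance of a signal from background limit the precision. Where no array of a group passed the background flag, a probe has only a bound there. The bound sets the bright group's mean against, per array, the higher of the lowest signal well above background and the dim probe's own. Names were matched to RefSeq (GRCm38.p6) by accession.

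Probes named with values are the called TC probes, the 6 brightest, and clusters with a called probe. Others were chosen after their values were seen. Members, lists and tests were chosen with earlier results of these data known. A planned grouping by description words was not done, because the data used here held no description column. Alternatives changed the scaling, background correction, filter, variance model, blocks, spot summary and arrays used.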

Additional observations from a re-analysis of the deposited data

Results flagged for a closer look

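Among 36 groups of 4 embryos examined (the probes named by rule, the share of TC probes detected and their median signal), 3 held an embryo far from the other 3, where chance gives about 1 in 20 groups. The called probe A_55_P1975571 of TC1651972 was at -7.86 in HOM father replicate 1 and between -6.99 and -6.93 in the other HOM father embryos. The untested probe A_55_P1982509 of TC1636993 was at -7.83 in HOM father replicate 1 and between -6.91 and -6.90 in the others. None of these spots was well above background. The same array had the lowest floor, with a median of -7.81 over TC spots not well above background, against -6.93 to -6.91 on the other HOM father arrays. A_55_P1982509 was also at -4.19 in HET father replicate 1, where it was well above background, and between -7.14 and -6.85 in the other HET father embryos, where it was not.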

How the results depend on the processing

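The 8 higher calls became 7 with quantile normalisation, 6 with median scaling, 5 with normexp background correction and 54 at an adjusted p below 0.05 without a fold limit, where the 1 lower call became 16. With the replicate number as a replicate block there were 6 higher and 1 lower, and A_55_P1979498 (adjusted p = 0.0245) and A_55_P2168914 (0.0101) were lost. Same-numbered embryos correlated between -0.13 and 0.19, and for 2 of the replicate numbers the best match was the same number. These few weak correlations cannot decide whether the numbers pair the embryos. With slide position as a block, which leaves fewer residual degrees of freedom, 0 were called higher and 0 lower (77 TC probes at an unadjusted p below 0.05, and 0 calls among all tested probes), the 9 having adjusted p of 0.0169 to 0.0454. The differences of these 9 in that fit equalled those without both replicate 1 arrays, so the replicate 1 arrays did not bear on them. Leaving out each embryo gave 6 to 13 higher calls (13 without HET father replicate 4) and 1 lower. With the number that begins each sample name as a random block (consensus correlation 0.302) there were 7 higher and 1 lower, A_55_P2070084 being lost at a change of 0.999. Of the 9 probes called with all arrays, 7 were called without HET father replicate 2. With probes well above background on all 8 arrays, 6 were higher and 0 lower. The median TC difference of 0.19 was 0.11 with quantile normalisation, 0.0020 with median scaling, 0.0903 with normexp, 0.060 over all 448 probes and 0.14 over probes detected on all arrays, and 0.16 to 0.21 with each embryo left out. Its distance from all tested probes ranged from 0.12 (normexp) to 0.22 under the 3 scaling and background alternatives and was 0.07 without the filter. Among the brightest probes the small differences changed sign for A_55_P2094237 (0.0344), A_55_P1996419 (0.0379) and A_55_P2158151 (0.0426) with quantile normalisation and for A_55_P2056260 with median scaling (-0.112) and normexp (-0.0164). A_55_P2168914 and A_55_P2070084, at the fold limit, each fell short of it or of the adjusted p under 8 alternatives. Normexp used the median spot signal and an offset of 50. It was chosen after the data were seen, as were the fit without both replicate 1 arrays (8 higher, 1 lower) and the median with bounds. The planned normexp on mean signals was not run. The causes of these changes were not tested. Levels close to the floor, such as those of A_55_P2061119 in HET father embryos, may misstate the size of a difference. The change of 1.84 for this probe was 1.67 with quantile normalisation, 1.65 with median scaling and 1.06 with normexp.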

Other observations

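The bright probe A_55_P2025155 of TC1781719 was at 5.52, 4.95, 5.54 and 5.71 in HOM father embryos and at 5.44, 5.09, 4.00 and 4.59 in HET father embryos. As with both probes of TC1605758, HET father replicate 3 was the lowest and HOM father replicate 4 the highest of the 8. Its difference by father was 0.65 (SE 0.31, limma adjusted p = 0.184).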
